A study of Solenopsis invicta with 12 samples.

Results

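Colonies of the red imported fire ant Solenopsis invicta were compared with each other through the antennae of their workers. The libraries described are the 8 polygyne libraries of a series of 12, chosen by their colony label alone. They came from 4 colonies named Rui9, Gui3, Bang3 and Bo5, with 2 pools per colony: 1 pool of SB/Sb workers and 1 pool of SB/SB workers. Every library was made from the pooled antennae of foraging workers of 1 genotype and 1 colony, attracted with honey and genotyped at Gp-9. The other 4 libraries of the series are SB/SB pools from the monogyne colonies Rui7, Zhuang3, Tan1 and Rui1, 1 library each, and serve here only for values set beside the polygyne ones. Each polygyne colony shares a bioreplicate number with 1 monogyne colony (Rui9 with Rui7, Gui3 with Zhuang3, Bang3 with Tan1, Bo5 with Rui1), and the study's methods give shared collection and sampling days for such a pair. A difference between colonies therefore cannot be told apart from a difference between days. The library names of both Bo5 pools, and of monogyne Rui7 and Rui1, carry the prefix LGC16 in place of LGC, which also cannot be told apart from colony among the polygyne libraries. By the study's library summary, the 2 pools of a colony held equal numbers of antennal pairs, but these numbers differed between colonies. Pool size therefore cannot be told apart from colony either. The share of duplicate reads also differed between libraries, and between nestmates most in Bo5. Its part was not tested. The 2 pools of a colony were dissected and amplified separately from different workers, so p-values measure the spread between nestmate pools and not between repeated samples of a colony over time.

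Polygyne fire ant colonies hold several egg-laying queens, and their workers come from many families. A supergene on the social chromosome has the variants SB and Sb: polygyne colonies hold SB/SB and SB/Sb workers, and in monogyne colonies, which have a single queen, workers are SB/SB. Ant antennae carry the olfactory neurons and the binding proteins, receptors and enzymes with which workers read colony odour and queen signals, and colony odour itself varies with genotype, food and surroundings. The comparison asks which antennal transcripts differ from colony to colony once the supergene genotype is held constant, a source of variation that stands beside genotype and social form in this design.

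The sum of expected counts, an estimate of the read pairs belonging to each gene, ranged from 2373104 (Gui3 SB/Sb) to 4101327 (Bang3 SB/Sb) in the polygyne libraries. Scaling factors by edgeR's TMM method ranged from 0.853 in the Rui9 SB/SB pool to 1.10 in the Bo5 SB/Sb pool. The 3 pools with factors under 1 were also those with the highest share of counts in their 10 top genes, 16.1% and 20.6% in the SB/Sb and SB/SB pools of Rui9 and 15.8% in the SB/Sb pool of Gui3. The antenna as a tissue could be checked only through the odour genes with a known identifier. Of these, the odorant-binding protein gene SiOBP12 reached 28.6 to 105 TPM (transcript level scaled for gene length and library) in the SB/Sb pools. It had 0 to 10.2 TPM in the SB/SB pools. The study also found SiOBP12 expressed in heads, thoraces and abdomens, so its level does not mark the antenna. The odorant receptor gene SiOR463 had 3.94 to 13.7 TPM across the 8 pools, and the odorant receptor gene SiOR462 had 0 to 3 counts. Most genes described below carry only an identifier of the official gene set (SINVm1_gene) or of the assembled transcripts (XLOC), with no function given in the sources used here.

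On average, nestmate pools resembled each other more than pools of different colonies did. After the mean of each genotype was removed, the root mean square difference of log2(CPM + 1), where CPM is the count scaled for library size and TMM factor, was 0.336 between the nestmate pools of Bang3, 0.441 in Bo5, 0.483 in Rui9 and 0.567 in Gui3. Over the 10702 genes tested, the mean of these 4 distances was 0.457, against 0.571 over all 24 ways to pair the SB/Sb with the SB/SB pools. No other pairing was as close (one-sided exact permutation test, p = 0.0417, the smallest this design can give). With the 1000 genes of highest mean CPM, or with log2(TPM + 1), 1 other pairing was as close and the exact p was 0.0833.

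Bang3, Bo5 and Rui9 pools were each nearest to their nestmate pool of the other genotype. Gui3 was the exception: its SB/Sb pool was nearest to the SB/SB pool of Rui9 (0.554) and its SB/SB pool was nearest to the SB/Sb pool of Bo5 (0.492), both closer than its own nestmate pair (0.567). The farthest pairs were the Rui9 SB/SB pool with the SB/Sb pools of Bang3 (0.817) and Bo5 (0.814). A chi-square test of counts over genes ordered the nestmate pairs likewise (statistic over its degrees of freedom 4.78 in Bang3, 7.9 in Bo5, 10.8 in Rui9 and 15.9 in Gui3). The reads of amplified libraries are not independent molecules, so these values are a description, and no 2 nestmate libraries were identical (Pearson's r of log2(CPM + 1) across genes 0.954 to 0.982).

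**Figure D1:**
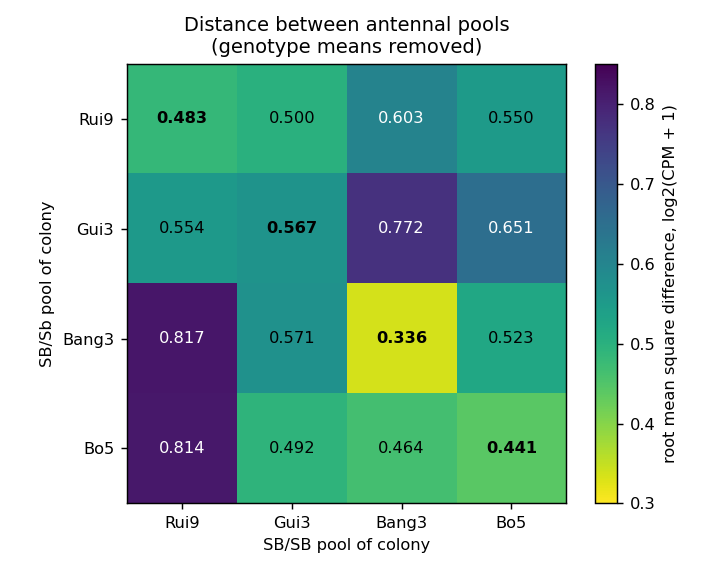
Distance between each SB/Sb pool (rows) and each SB/SB pool (columns) of the 4 polygyne colonies, as the root mean square difference of log2(CPM + 1) over 10702 genes after removal of genotype means; nestmate pairs stand on the diagonal in bold. The diagonal holds the lowest value of its row and column for Rui9, Bang3 and Bo5 but not for Gui3, whose nestmate distance is 0.567.

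Colony took the larger part of the variation of a typical gene. The median share of the sum of squares of log2(CPM + 1) was 64.8% for colony with 3 degrees of freedom (quartiles 45.7% and 78.6%), 3.53% for genotype with 1 degree of freedom and 26.5% for the residual with 3, where an even spread over the 7 degrees of freedom would give 42.9%, 14.3% and 42.9%. These shares are a description over genes, which are not independent. Within a single genotype, the median log2 SD between the 4 colonies was 0.338 in the SB/Sb pools and 0.378 in the SB/SB pools. Between the 4 monogyne colonies it was 0.451. That set held the library with the lowest sum of expected counts of all 12 (Rui1, 1662249), and Rui7 and Rui1 carry LGC16. In each polygyne set only the Bo5 pool does. The part of depth and prefix in the larger SD was not tested.

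In the test of the 4 colonies with genotype as a covariate, 206 of 10702 genes passed (edgeR robust quasi-likelihood F-test, Benjamini-Hochberg adjusted p under 0.05), a background of 1.92%, and 2659 had an unadjusted p under 0.05. In simulated counts this model called more unchanged genes than that threshold allows for, which limits every edgeR call and adjusted p given here. Between the highest and lowest colony these 206 genes spanned a median of 1.76 on the log2 scale (0.826 to 8.37), and 76 spanned more than 2, a 4-fold difference. When the 4 fitted colony levels of each gene were split at their largest gap, Bang3 stood alone for 80 genes, low in 53 and high in 27. Rui9 stood alone for 38 genes (29 high, 9 low), Gui3 for 18 (10 high, 8 low) and Bo5 for 12 (3 high, 9 low). Of the 58 genes that split 2 colonies against 2, 27 were high in Gui3 and Rui9 and 24 were high in Bang3 and Bo5. For genotype in the same fit, 22 genes were higher and 2 lower in SB/Sb than in SB/SB pools, backgrounds of 0.206% and 0.0187%. This balance rested on Gui3: 25 genes were higher and 33 lower without its SB/Sb pool, 26 and 37 without its SB/SB pool, and 25 and 32 without the colony. With DESeq2, 23 were higher and 11 lower.

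The count of colony genes depended on single libraries. It was 2110 without the Gui3 SB/Sb pool and 2697 without the Gui3 SB/SB pool, 1094 without the Rui9 SB/Sb pool and 286 without the Rui9 SB/SB pool. Without either Bang3 pool it was 12 and 11, and without either Bo5 pool it was 15 and 15. In these fits a colony with 1 pool left was assumed to vary like the others. The calls themselves were largely nested: 205 of the 206 genes passed without the Gui3 SB/Sb pool and all 12 that passed without the Bang3 SB/Sb pool were among the 206. Exactly 10 genes passed in each of the 8 fits: 4 split with Bo5 low, 3 with Rui9 high, 2 with Gui3 high and 1 with Gui3 and Rui9 high. By tool, the count was 640 with DESeq2, of which 195 were among the 206, and 4 with limma on log2(TPM + 1), all among the 206.

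**Figure D2:**
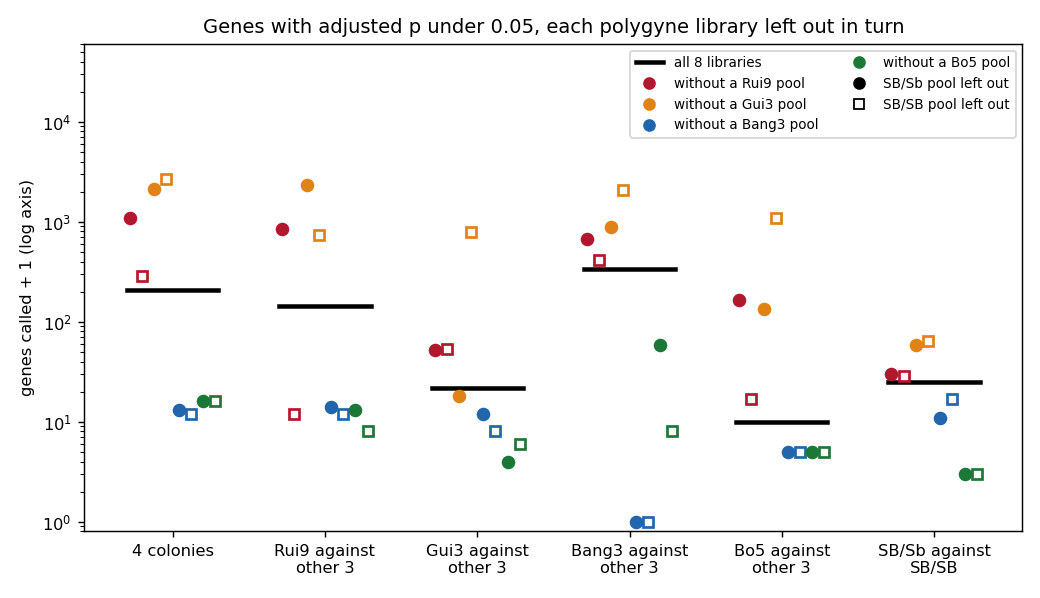
Number of genes with adjusted p under 0.05 (plus 1, log axis) in the test of the 4 colonies, each colony contrast and the genotype contrast, with all 8 libraries (black line) and with 1 library left out (coloured by the colony that lost a pool; filled circle, SB/Sb pool; open square, SB/SB pool). Leaving out a Gui3 pool raised the 4-colony count to 2110 or 2697, and leaving out a Bang3 or Bo5 pool lowered it to between 11 and 15.

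A set of 4 genes separated Rui9 and Bo5 at opposite ends, and they had the 4 lowest adjusted p-values of the 4-colony test. SINVm1_gene_13864 was measured at 1911 and 1448 TPM in the SB/Sb and SB/SB pools of Rui9, 300.1 and 663 TPM in Gui3, 144 and 187 TPM in Bang3 and 6.72 and 4.98 TPM in Bo5, where it rested on 7 and 5 counts. No pools of different colonies overlapped, and the span between Rui9 and Bo5 was 8.37 on the log2 scale, the largest of the 206. Its log2 difference from the mean of the other 3 colonies was 4.70 ± 0.217 (SE, adjusted p = 3.42e-06) for Rui9, 1.98 ± 0.233 (SE, adjusted p = 0.00663) for Gui3 and -6.46 ± 0.381 (SE, adjusted p = 2.93e-05) for Bo5. The monogyne libraries held 1402 TPM in Rui7, 1732 TPM in Zhuang3, 4205 TPM in Tan1 and 113 TPM in Rui1, so Rui1, which shares the bioreplicate number of Bo5, was also the lowest of its group.

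SINVm1_gene_07961 kept the same order of colonies, with 269 and 326 TPM in Rui9, 119 and 139 TPM in Gui3, 72.9 and 104 TPM in Bang3 and 16.3 and 14.4 TPM in Bo5. Rui9 differed from the other 3 by 2.64 ± 0.169 (SE, adjusted p = 1.96e-05) and Bo5 by -3.34 ± 0.247 (SE, adjusted p = 7.48e-05). SINVm1_gene_05940 had 1586 and 1428 TPM in Rui9 and 141 and 112 TPM in Bo5, while the 4 pools of Gui3 (644 and 719.9 TPM) and Bang3 (649.9 and 798 TPM) lay together in between. The differences were 2.15 ± 0.141 (SE, adjusted p = 1.96e-05) for Rui9 and -2.91 ± 0.19 (SE, adjusted p = 2.93e-05) for Bo5. The Rui9 contrast takes in the low Bo5 level: without colony Bo5 the Rui9 difference was 1.32 (adjusted p = 0.0525) for this gene, 2.85 (adjusted p = 0.0186) for SINVm1_gene_13864 and 1.70 (adjusted p = 0.0314) for SINVm1_gene_07961. With all 4 colonies, SINVm1_gene_05940 was also the 1 gene that passed when bioreplicate number was tested over all 12 libraries with worker class as a covariate (adjusted p = 0.00419). Its monogyne levels were 3386 TPM in Rui7, 1032 TPM in Zhuang3, 2788 TPM in Tan1 and 354 TPM in Rui1.

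XLOC_020538 was nearly absent from Bo5. It had 69.7 and 77.5 TPM in Rui9, 65.4 and 52.8 TPM in Gui3 and 29.6 and 28.8 TPM in Bang3, against 0.81 and 0.69 TPM in Bo5, where the SB/Sb and SB/SB pools held 2 and 1 counts. All 6 pools of the other colonies were far above both Bo5 pools. Rui9 was little above Gui3, and their own differences of 2.86 ± 0.258 and 2.26 ± 0.27 (SE) take in the low Bo5 level. Pooled over libraries, the other 3 colonies had 57.4 times the counts of Bo5 for equal depth (exact 95% interval 19.5 to 279, counting error only), and the fitted difference of Bo5 was -5.84 ± 0.451 (SE, adjusted p = 9.11e-05). The gene lies on scaffold 43 of the Si_gnH assembly at 1609784 to 1613153, plus strand, with 2 transcripts of up to 7 exons, and the annotation gives it the official name SINV21634. Among monogyne libraries it was lowest in Rui1 (6.55 TPM) and next in Rui7 (17.97 TPM), the pair with the LGC16 prefix, against 32.6 TPM in Zhuang3 and 85.4 TPM in Tan1. The part of the prefix in this difference was not tested.

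**Figure D3:**
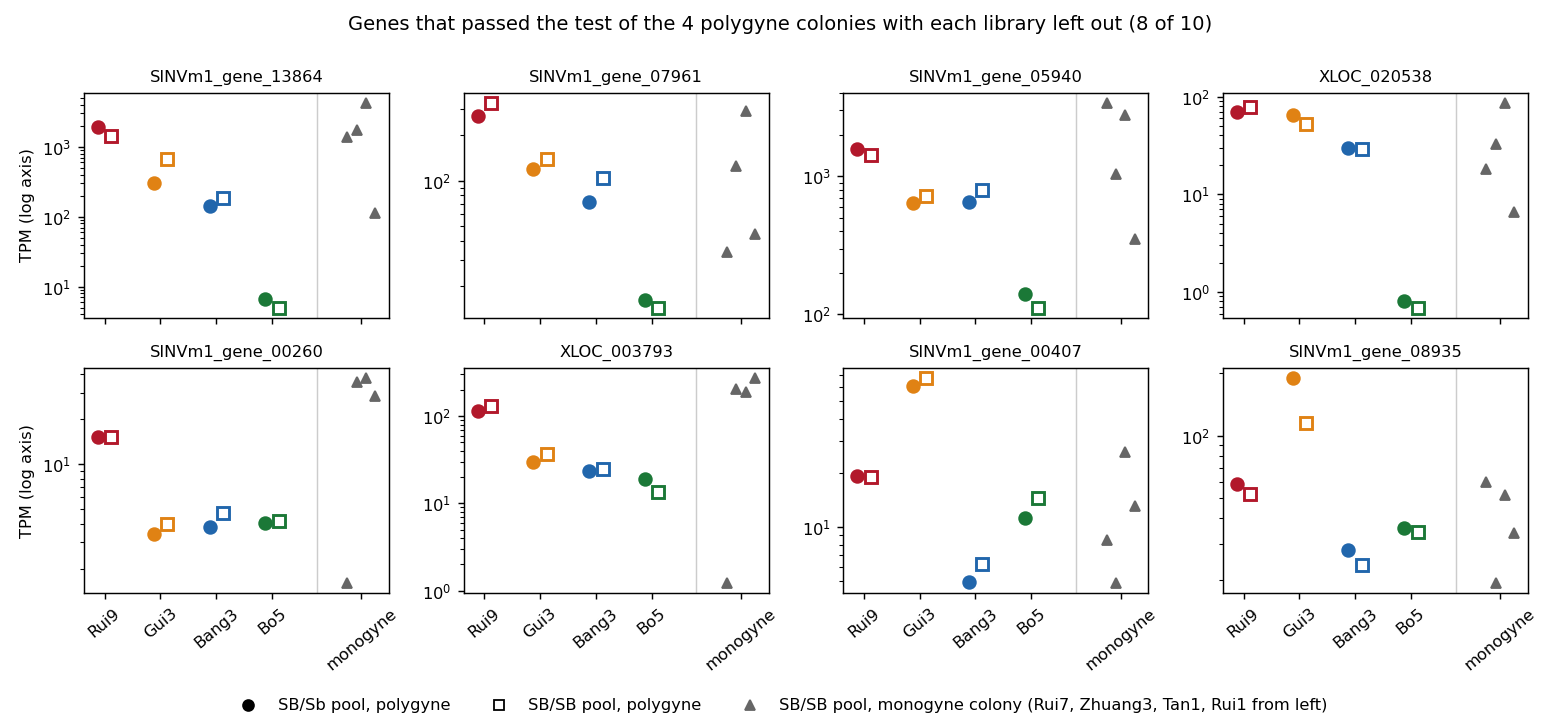
Deposited TPM (log axis) in the SB/Sb pool (filled circle) and SB/SB pool (open square) of each polygyne colony and in the 4 monogyne libraries (triangles, in the order Rui7, Zhuang3, Tan1, Rui1) for 8 of the 10 genes that passed with each library left out. In SINVm1_gene_13864 the Rui9 pools reach 1911 and 1448 TPM and the Bo5 pools 6.72 and 4.98 TPM.

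Against the other 3 colonies, Rui9 had 117 genes higher and 25 lower, backgrounds of 1.09% and 0.234%, with a median size of 1.14 on the log2 scale (2518 genes at an unadjusted p under 0.05). Besides the 4 genes above, SINVm1_gene_00260 was higher, with 15.2 and 15.1 TPM in Rui9, against 3.41 and 3.96 TPM in Gui3, 3.81 and 4.72 TPM in Bang3 and 4.03 and 4.15 TPM in Bo5. The 2 Rui9 pools were nearly equal and the other 6 lay together, a difference of 2.15 ± 0.156 (SE, adjusted p = 4.51e-05). XLOC_003793, a single-exon transcript at 40 to 1110 of contig 37774, had 114 and 129 TPM in Rui9, against 30.2 and 36.98 TPM in Gui3, 23.3 and 24.6 TPM in Bang3 and 19.03 and 13.7 TPM in Bo5, a difference of 2.59 ± 0.196 (SE, adjusted p = 5.86e-05). XLOC_002097, a single-exon transcript at 2 to 1975 of contig 26999, had 65.8 and 70.6 TPM in Rui9, against 13.9 and 19.98 TPM in Gui3, 22.98 and 26.8 TPM in Bang3 and 18.8 and 26.3 TPM in Bo5, a difference of 1.93 ± 0.176 (SE, adjusted p = 0.000303). Both XLOC genes are outside the naming rule and were picked out after their values were seen, because they passed with each library left out.

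These 3 genes share a monogyne pattern that the contrast did not use. SINVm1_gene_00260 had 1.61 TPM in Rui7, 35.2 TPM in Zhuang3, 37.4 TPM in Tan1 and 28.5 TPM in Rui1. XLOC_003793 had 1.23 TPM in Rui7, 206 TPM in Zhuang3, 191 TPM in Tan1 and 271 TPM in Rui1, and XLOC_002097 had 15.9 TPM in Rui7, 184 TPM in Zhuang3, 216 TPM in Tan1 and 154 TPM in Rui1. Rui7 was the lowest of all 12 libraries in the first and second of these genes and within the range of the 6 lower polygyne pools in XLOC_002097, while the other 3 monogyne colonies exceeded even the Rui9 pools. Rui9 and Rui7 share a bioreplicate number, so here the polygyne and the monogyne colony of that number stood at opposite ends of their groups.

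Among the genes lower in Rui9, SINVm1_gene_05886 had 80.4 and 65.6 TPM in Rui9, against 212 and 451 TPM in Gui3, 213 and 181 TPM in Bang3 and 381 and 399 TPM in Bo5, a difference of -1.76 ± 0.239 (SE, adjusted p = 0.0106). SINVm1_gene_06424 had 62.6 and 38.8 TPM in Rui9, against 71.6 and 118 TPM in Gui3, 256 and 209.6 TPM in Bang3 and 188 and 134 TPM in Bo5, a difference of -1.38 ± 0.226 (SE, adjusted p = 0.0214), and its highest levels were in Bang3. The Gui3 SB/Sb pool of that gene was the nearest to the Rui9 SB/Sb pool. SINVm1_gene_12573 differed by -1.35 ± 0.244 (SE, adjusted p = 0.0285) and XLOC_039594 (scaffold 408, 119471 to 123383, plus strand, official name SINV17638) by -1.27 ± 0.237 (SE, adjusted p = 0.0329). All 4 passed in at most 4 of the 8 fits with a library left out. Over the contrast, the count was 837 without the Rui9 SB/Sb pool and 11 without the Rui9 SB/SB pool, 2308 and 732 without the Gui3 SB/Sb or SB/SB pool, 13 and 11 without the Bang3 SB/Sb or SB/SB pool, and 12 and 7 without the Bo5 SB/Sb or SB/SB pool. Within the LGC prefix, that is without colony Bo5, 5 genes passed. The share of higher genes also depended on colony Gui3. Without it, 1346 genes were higher and 1123 lower (54.5% higher, against 82.4% with all libraries). That share also shifted with single pools left out. It was near even without the Gui3 SB/Sb pool or the Rui9 SB/Sb pool, but fell less without the Gui3 SB/SB pool. The TMM factors of the Rui9 pools were 0.936 (SB/Sb) and 0.853 (SB/SB), and with upper-quartile factors 66 genes were higher and 12 lower. The part of library composition in the Rui9 count was not tested.

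Gui3 had 17 genes higher and 4 lower than the other 3 colonies, backgrounds of 0.159% and 0.0374%, with 1389 genes at an unadjusted p under 0.05. SINVm1_gene_00407 had 61.04 and 67.1 TPM in Gui3, against 19.3 and 19.02 TPM in Rui9, 4.98 and 6.26 TPM in Bang3 and 11.2 and 14.4 TPM in Bo5, a difference of 2.53 ± 0.213 (SE, adjusted p = 0.000889). Rui9 came next and Bang3 was the lowest, with -2.33 ± 0.286 (SE, adjusted p = 0.005) in its own contrast. SINVm1_gene_08935 had 189 and 115 TPM in Gui3, against 58.6 and 52.4 TPM in Rui9, 27.96 and 23.8 TPM in Bang3 and 35.7 and 34.3 TPM in Bo5, a difference of 2.03 ± 0.182 (SE, adjusted p = 0.000889), and it too was lowest in Bang3, by -1.53 ± 0.219 (SE, adjusted p = 0.00834). SINVm1_gene_06039 had 52.02 and 39.2 TPM in Gui3, against 19.2 and 27.3 TPM in Rui9, 7.22 and 5.59 TPM in Bang3 and 13.8 and 10.96 TPM in Bo5, a difference of 1.90 ± 0.207 (SE, adjusted p = 0.00446), and SINVm1_gene_00425 differed by 2.83 ± 0.323 (SE, adjusted p = 0.00534), with 34.5 and 27.1 TPM in Gui3.

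The gene with the largest fall in Gui3 was XLOC_019182, a single-exon transcript on the minus strand of scaffold 37 at 328742 to 343076. It had 0.24 and 0.38 TPM in Gui3, against 6.44 and 4.3 TPM in Rui9, 13.7 and 7.72 TPM in Bang3 and 5.05 and 1.12 TPM in Bo5, a difference of -3.95 ± 0.451 (SE, adjusted p = 0.00663). The SB/Sb and SB/SB pools of Bo5 held 128 and 27 counts, so nestmates differed there, and Bang3 was the highest colony, by 2.45 ± 0.286 (SE, adjusted p = 0.005). In monogyne libraries it was listed at 0 in Rui7 and Rui1, both LGC16, and had 6.71 TPM in Zhuang3 and 7.29 TPM in Tan1, both LGC. Among the polygyne pools, those of Bo5 are LGC16 and lay above both Gui3 pools, and the Bo5 SB/SB pool was the lowest outside Gui3. The part of the prefix was not tested. At high levels SINVm1_gene_11176 differed by -1.23 ± 0.186 (SE, adjusted p = 0.0255) and SINVm1_gene_13928 by -1.11 ± 0.168 (SE, adjusted p = 0.0255), the second with 297 and 309.9 TPM in Gui3, against 562 and 599.6 TPM in Rui9, 657 and 791 TPM in Bang3 and 818 and 572 TPM in Bo5. XLOC_035632 (scaffold 232, 76325 to 80546, plus strand) differed by -1.07 ± 0.182 (SE, adjusted p = 0.0465). The Gui3 count was 17 without its SB/Sb pool and 785 without its SB/SB pool, 51 and 52 without the SB/Sb or SB/SB pool of Rui9, 11 and 7 without that of Bang3, 3 and 5 without that of Bo5, and 2 without colony Bo5.

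Bang3 had 166 genes higher and 172 lower than the other 3 colonies, backgrounds of 1.55% and 1.61% (2352 genes at an unadjusted p under 0.05). Their median size was 1.12 on the log2 scale. For 160 of the higher and 160 of the lower genes both Bang3 pools lay beyond all 6 other pools in TPM, in a set chosen for that difference. The Rui9 pools likewise lay beyond the others for 93 of 117 higher and 23 of 25 lower genes of the Rui9 contrast. XLOC_019182, described above for Gui3, was among the higher genes. SINVm1_gene_14734 had 256 and 139 TPM in Bang3, against 63.4 and 15.7 TPM in Rui9, 12.4 and 17.5 TPM in Gui3 and 87.4 and 27.6 TPM in Bo5, a difference of 2.41 ± 0.291 (SE, adjusted p = 0.005), with Bo5 SB/Sb as the nearest other pool. SINVm1_gene_15195 had 151 and 99.5 TPM in Bang3, against 18.3 and 11.9 TPM in Rui9, 12.8 and 27.1 TPM in Gui3 and 51.8 and 35.7 TPM in Bo5, a difference of 2.18 ± 0.268 (SE, adjusted p = 0.005). SINVm1_gene_06895 had 168 and 178 TPM in Bang3, against 64.6 and 50.3 TPM in Rui9, 32.6 and 46.9 TPM in Gui3 and 82.1 and 74.1 TPM in Bo5, a difference of 1.44 ± 0.182 (SE, adjusted p = 0.005). In all 3, Bo5 held the next highest pool.

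Among the lower genes, SINVm1_gene_04240 had 5.22 and 6.25 TPM in Bang3, against 33.4 and 39.8 TPM in Rui9, 20.9 and 29.1 TPM in Gui3 and 28.3 and 32.8 TPM in Bo5, a difference of -2.56 ± 0.288 (SE, adjusted p = 0.00372). XLOC_005182 (scaffold 1, 4643755 to 4648341, plus strand, 3 transcripts of up to 7 exons, official name SINV14413) had 9.36 and 7.45 TPM in Bang3, against 36.8 and 38.7 TPM in Rui9, 30.7 and 35.3 TPM in Gui3 and 30.6 and 31.6 TPM in Bo5, a difference of -2.16 ± 0.212 (SE, adjusted p = 0.00372). In both genes the 6 pools of the other colonies lay close together and apart from Bang3. A pair of abundant transcripts was also lower. SINVm1_gene_07111 had 654 and 757 TPM in Bang3, against 2376 and 2489 TPM in Rui9, 2451 and 2496 TPM in Gui3 and 1324 and 2146 TPM in Bo5, a difference of -1.81 ± 0.187 (SE, adjusted p = 0.00372). SINVm1_gene_01193 had 652 and 802 TPM in Bang3, against 1699 and 1554 TPM in Rui9, 1945 and 2244 TPM in Gui3 and 1762 and 2347 TPM in Bo5, a difference of -1.66 ± 0.187 (SE, adjusted p = 0.00372). SINVm1_gene_10240, picked out after its values were seen because it passed the 4-colony test with each library left out, split the colonies in pairs, with 37.1 and 26.6 TPM in Bang3, against 115 and 118 TPM in Rui9, 134 and 109 TPM in Gui3 and 44.1 and 41.1 TPM in Bo5.

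**Figure D4:**
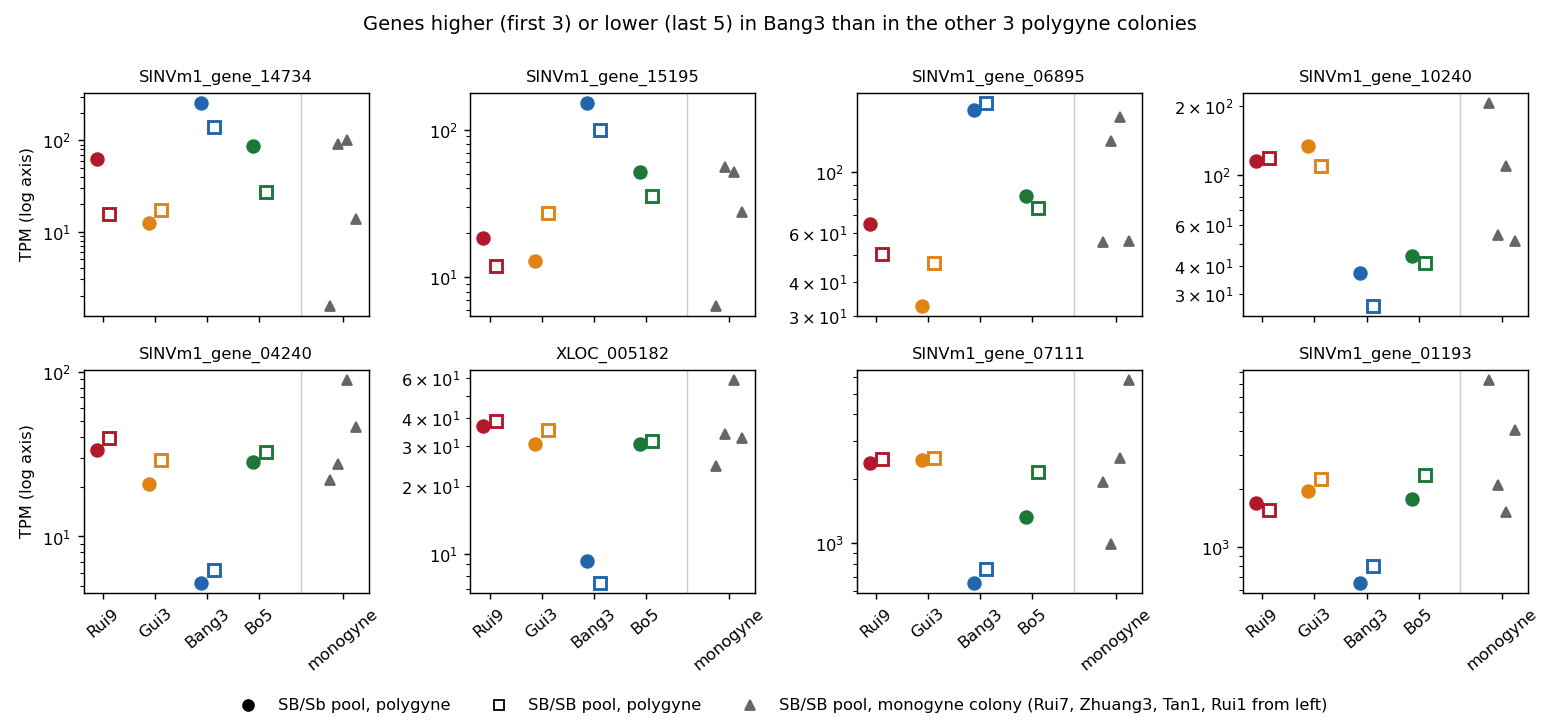
Deposited TPM (log axis) of 3 genes higher and 5 genes lower in Bang3, in the SB/Sb pool (filled circle) and SB/SB pool (open square) of each polygyne colony and in the 4 monogyne libraries (triangles, in the order Rui7, Zhuang3, Tan1, Rui1). Both Bang3 pools lie above all 6 other polygyne pools in the first 3 panels and below them in the other 5, with 5.22 and 6.25 TPM in Bang3 for SINVm1_gene_04240.

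The Bang3 calls needed both pools of that colony. Without its SB/Sb or its SB/SB pool 0 genes passed (edgeR, 850 and 869 genes at an unadjusted p under 0.05), and limma on log2(TPM + 1) with all 8 libraries also gave 0 (2102 unadjusted), whereas DESeq2 gave 353, of which 286 were among the 338. With all libraries the Bang3 count exceeded that of Rui9, but Rui9 had more genes at an unadjusted p under 0.05 (2518 against 2352) and more calls without colony Gui3 (2469 against 1055). The Bang3 count was 676 and 410 without the Rui9 SB/Sb or SB/SB pool, 876 and 2058 without the Gui3 SB/Sb or SB/SB pool, and 57 and 7 without the Bo5 SB/Sb or SB/SB pool. Within the LGC prefix, without colony Bo5, 218 genes passed, of which 191 were among the 338. Bang3 also had the deepest polygyne library and the closest nestmate pools (0.336), and the part of depth in its count was not tested.

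Bo5 had 2 genes higher and 7 lower than the other 3 colonies, backgrounds of 0.0187% and 0.0654%, with 1306 genes at an unadjusted p under 0.05. The lower genes with the lowest adjusted p were SINVm1_gene_13864, SINVm1_gene_05940, SINVm1_gene_07961 and XLOC_020538, given above, and these 4 passed in each of the 8 fits with a library left out. Of the higher genes, SINVm1_gene_03054 had 46.9 and 36.4 TPM in Bo5, against 14.98 and 10.8 TPM in Rui9, 10.2 and 9.82 TPM in Gui3 and 3.72 and 5.08 TPM in Bang3, a difference of 2.25 ± 0.295 (SE, adjusted p = 0.0144). SINVm1_gene_03647 had 162 and 396 TPM in Bo5, against 50.8 and 88.2 TPM in Rui9, 18.3 and 21.4 TPM in Gui3 and 0 and 23.1 TPM in Bang3, a difference of 3.38 ± 0.487 (SE, adjusted p = 0.0265), but it rested on 18 and 47 counts in Bo5 and at most 10 in any other polygyne pool. The Bo5 count was 4 without either Bo5 pool or either Bang3 pool, 164 and 16 without the Rui9 SB/Sb or SB/SB pool, and 132 and 1085 without the Gui3 SB/Sb or SB/SB pool. Among polygyne libraries each of these contrasts is also LGC16 against LGC. In the monogyne libraries, where Rui7 and Rui1 carry LGC16, the median LGC16 minus LGC difference of the 7 genes lower in Bo5 was -0.665 on the log2 scale. Over all genes it was -0.0299. Rui7 and Rui1 also had the lowest sums of expected counts of the monogyne libraries, and the part of prefix or depth was not tested.

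The monogyne library with the bioreplicate number of a colony shares its collection and sampling days, with 1 library per colony, so it gives values and no test. Its log2 difference from the other 3 monogyne libraries was taken for the genes called in each polygyne contrast. Of the 166 genes higher in Bang3, 85.5% were higher in Tan1 as well, with a median difference of 0.636, against 52.0% of all genes tested. Of the 172 genes lower in Bang3, 111 (64.5%) were lower in Tan1, against 48.0% of all genes. Tan1 is an LGC library, and the same genes also differed by prefix among the monogyne libraries. The LGC16 minus LGC median was -0.607 for the genes higher in Bang3 and 0.507 for the genes lower in Bang3, against -0.0299 over all genes. Tan1 also had the highest sum of expected counts of the monogyne libraries (4006513, against 3182331 in Zhuang3, 2650483 in Rui7 and 1662249 in Rui1). Shared days, prefix and depth cannot be told apart here. For Rui9, 72 of 117 higher genes (61.5%) were higher in Rui7 and 21 of 25 lower genes (84.0%) were lower there, against 49.0% and 50.9% of all genes. Gui3 went the other way: 3 of its 17 higher genes were higher in Zhuang3 and 0 of its 4 lower genes were lower there, against 51.1% and 48.9% of all genes, with a median difference of -1.29 for the higher genes. For Bo5, 1 of 2 higher genes was higher and 6 of 7 lower genes were lower in Rui1, against 49.6% and 50.3% of all genes. Tested over all 12 libraries with worker class as a covariate, bioreplicate number gave 1 gene (edgeR, 1621 at an unadjusted p under 0.05). With name prefix as a further term it gave 194 genes, of which 42 were among the 206.

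The study listed genes that differed between worker classes, and 1 tested member passed the test of the 4 colonies. At an unadjusted p under 0.05 and with DESeq2, the list's share was below that of all genes. The list was chosen on these libraries for genotype or social form, so its counts are not independent of the design. Of 78 tested members 1 passed (11 at an unadjusted p under 0.05, 2 with DESeq2, 0 with limma), against a background of 1.92% (2659 of 10702 unadjusted, 640 with DESeq2, 4 with limma), and 23 passed for genotype in the same fit. With edgeR 0 of the 12 tested genes of chemical metabolism and odour perception passed, among them enzymes such as fatty acid synthase, an acyl-delta desaturase and a cytochrome P450. In that list 3 genes had an unadjusted p under 0.05. The counts were also 0 of 15 transposable elements (1 unadjusted), 0 of 2 virus proteins (0 unadjusted) and 0 of 7 supergene genes (2 unadjusted), and DESeq2 and limma gave 0 for each of these lists. The median span between colonies was 0.593 on the log2 scale for the whole list, against 0.708 over all genes tested. It was 0.709 for chemical metabolism and odour perception, 0.611 for transposable elements and 0.560 for supergene genes. The 1 member that passed was XLOC_044145, an uncharacterized protein on scaffold 1317 (49 to 2060). It had 37.7 and 12.2 TPM in Bang3, against 105 and 34.9 TPM in Rui9, 92.3 and 16.5 TPM in Gui3 and 83.1 and 16.9 TPM in Bo5, and Bang3 differed by -1.28 ± 0.254 (SE, adjusted p = 0.0259) and Rui9 by 1.14 ± 0.222 (SE, adjusted p = 0.0407). It passed the 4-colony test in 4 of the 8 fits with a library left out, and not without either Bang3 pool (adjusted p = 0.369 and 0.282) or either Bo5 pool (adjusted p = 0.146 and 0.158). SINVm1_gene_01363, also of the study's list, passed as higher in Rui9 (log2 difference 0.85, adjusted p = 0.0499). In XLOC_044145, SB/Sb exceeded SB/SB in every colony, with a genotype log2 difference of 1.95 (adjusted p = 0.00161).

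Of the odour genes, SiOBP12 passed for genotype and not for colony, and SiOR463 passed for neither. SiOBP12 (SINVm1_gene_02111) is an odorant-binding protein gene of the supergene. The study's list labels it SiOBP12b′, the paralog to which the study assigned its expression in SB/Sb antennae. It had 57.8 and 10.2 TPM in the SB/Sb and SB/SB pools of Rui9, 105 and 3.82 TPM in Gui3, 28.6 and 1.21 TPM in Bang3 and 55.2 and 0 TPM in Bo5. Its SB/Sb pools were highest in Gui3 and lowest in Bang3, and the 4-colony test gave an adjusted p of 0.198, while the genotype difference was 4.0 on the log2 scale (adjusted p = 0.00817). It passed the 4-colony test in 2 of the 8 fits with a library left out. SiOR463 (XLOC_016888), an odorant receptor gene of the supergene on scaffold 28 at 46860 to 48188, had 5.9 and 11.5 TPM in Rui9, 8.16 and 11.6 TPM in Gui3, 3.94 and 13.7 TPM in Bang3 and 5.54 and 12.1 TPM in Bo5. The SB/Sb pool was the lower one in each colony, with a genotype log2 difference of -1.13 (adjusted p = 0.802). The study called SiOR463 lower in SB/Sb over all 12 libraries and reported it deleted from the Sb genome. At 11 to 32 counts per polygyne library, the missed genotype call here does not show equal levels. Colonies spanned 0.397 on the log2 scale (adjusted p = 0.857). The odorant receptor gene SiOR462 (SINVm1_gene_13698) had 0 to 3 counts in each polygyne library and was too low to test, so a colony difference was not detectable at this depth.

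Few genes were on in 1 colony and off in another. With on set at 10 or more counts in both pools of a colony and off at 3 or fewer in both pools of another, 112 of all genes listed met the rule, 27 of them XLOC genes, and 10503 genes were on in at least 1 colony. Only 2 genes were on in 1 colony and off in the other 3: SINVm1_gene_07419, with 16 and 12 counts in Gui3 and at most 1 in the other 6 pools, and SINVm1_gene_10191, with 13 and 11 counts in Bang3 and at most 3 elsewhere, both chosen after their values were seen. A further 2 were off in 1 colony and on in the other 3, XLOC_020538 (off in Bo5) and SINVm1_gene_14788 (off in Gui3, with 0 and 3 counts). Of the 112, 88 were on in Bang3 and 61 were off in Rui9, and the Bang3 pools were the deepest polygyne libraries (4101327 and 3352972 counts). With TPM limits in place of counts (5 TPM and 0.5 TPM), 252 genes met the rule and Bang3 was the on colony of 127, Bo5 of 79, Rui9 of 66 and Gui3 of 49.

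Most of these genes stood close to the limits, since 4 genes met the rule with on at 20 counts and 6 with off at 0. SINVm1_gene_00446 had 18 and 30 counts in Rui9, 0 and 5 in Gui3, 23 and 0 in Bang3 and 0 and 0 in Bo5, and 218 in monogyne Rui7. Nestmate pools of Bang3 lay on either side of the limits, and the 4-colony test gave an adjusted p of 0.259. SINVm1_gene_12449 had 10 and 10 counts in Gui3 and 3 and 3 in Bang3. SINVm1_gene_03286 had 28 and 14 counts in Bang3 and 3 and 0 in Rui9, and SINVm1_gene_00728 had 12 and 12 counts in Bang3 and 1 and 2 in Gui3. SINVm1_gene_12016 had 11 and 11 counts in Bo5 and 1 and 0 in Rui9. The 4-colony test gave these 5 genes adjusted p-values of 0.138 to 0.315, and 5 of the 82 tested on/off genes passed it, beside the background of 1.92%, in a set chosen for a colony difference.

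XLOC genes made up 49 of 206 (23.8%), against 25.7% of all genes tested. Single-exon transcripts were 25 of these 49 (51.0%), against 75.9% of all XLOC genes tested, and 18 (36.7%) overlapped an official gene in the annotation, against 20.7%. The median of the mean CPM was 51.4 for the 206 and 23.9 for all genes tested. Genes higher in Rui9 held 30.8% XLOC genes and genes lower in Bang3 10.5%. Among the XLOC genes of the 206, 1 pair lay within 10000 bases of each other on the same scaffold, XLOC_041357 and XLOC_041358.

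The most abundant transcripts varied between pools without passing the test. XLOC_043981, XLOC_043984 and XLOC_043982, which lie on scaffold 1196 (9564 to 11659, 78 to 3349 and 11780 to 14287) and were picked out after their values were seen, together took 8.5% and 12.3% of the counts in the SB/Sb and SB/SB pools of Rui9. The share was 9.38% and 5.6% in Gui3, 4.65% and 5.54% in Bang3, and 4.88% and 7.08% in Bo5. Rui9 had the highest share in its SB/SB pool, but the Gui3 SB/Sb pool exceeded the Rui9 SB/Sb pool and the nestmates of Gui3 differed. For XLOC_043981 alone the log2 difference of Rui9 was 1.07 (adjusted p = 0.106) and the 4-colony test gave an adjusted p of 0.146. Its neighbours gave 0.308 (XLOC_043984) and 0.283 (XLOC_043982). The monogyne libraries ranged from 1.88% (Zhuang3) to 8.85% (Rui7).

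**Figure D5:**
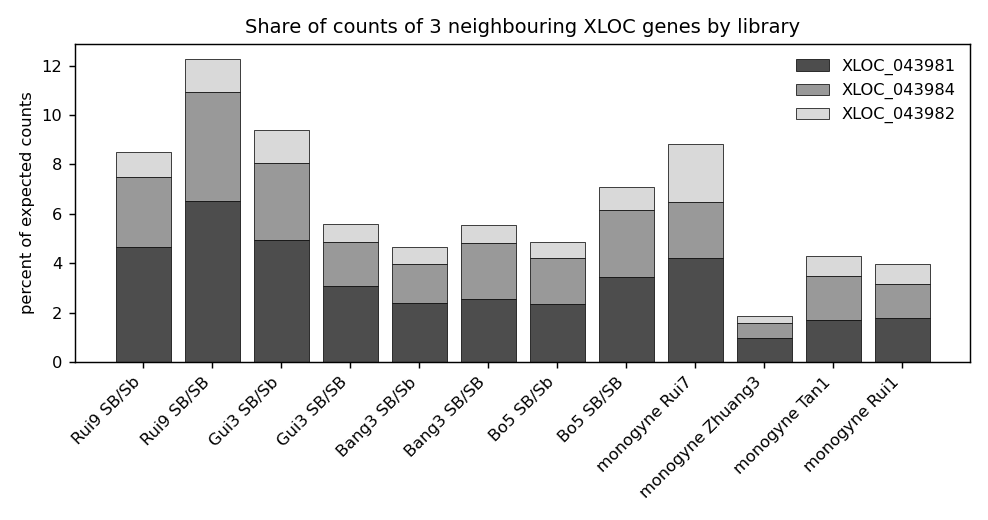
Percent of expected counts in XLOC_043981, XLOC_043984 and XLOC_043982 (stacked bars from 0) in each of the 8 polygyne and 4 monogyne libraries. The Rui9 SB/SB pool has the highest share at 12.3% and monogyne Zhuang3 the lowest at 1.88%.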

How the data were processed

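Antennal RNA of fire ant workers was amplified and sequenced, and the authors trimmed the reads, aligned them with Bowtie2 to a set of official and newly assembled genes and deposited RSEM's expected count and TPM for every gene and library. Expected counts are not scaled for depth, and TPM values are scaled for gene length and library. They also deposited an exon annotation of assembled transcripts on Si_gnH scaffolds, which placed all 3641 XLOC genes and 0 of the official identifiers. The strand setting of the counting is not given in the sources used here.

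The deposited expected counts were rounded to whole numbers. The 8 polygyne libraries were fitted in edgeR (4.0.16, R 4.3.3) with TMM factors, filterByExpr by colony, terms for colony and genotype (3 residual degrees of freedom) and the robust quasi-likelihood test. The colony coefficients were tested together by an F-test, and each colony was set against the mean of the other 3. Adjusted p-values follow Benjamini and Hochberg over all 10702 genes. TPM values give the levels. Colony and genotype were taken from the labels. The model was tested on simulated counts, where it also called more unchanged genes than an adjusted p under 0.05 allows for. Depth was 2373104 to 4101327 expected counts per polygyne library, and genes of low TPM therefore carry larger counting errors.

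Alternatives were upper-quartile factors, no filter, a minimum of 10 counts per library, tests by limma (3.58.1) on log2(TPM + 1) and by DESeq2 (1.42.0), no genotype or colony term, an adjusted p under 0.01, each library or colony left out, and fits of all 12 libraries by bioreplicate. The colonies, gene lists and rules were chosen with earlier results of these data known. The genes named are, per colony, up to 4 higher and 4 lower by adjusted p with both pools beyond the other 6, the 5 with the lowest adjusted p over the 4 colonies, the study's listed genes that passed, 3 odour genes, and up to 2 on/off genes per colony. Gene functions come from the study's list, since the identifiers could not be matched to a reference annotation here, so markers of other tissues were not checked. The SB/Sb and SB/SB pools are paired by colony, which is a term of the model. Distances and summaries were computed in Python (3.11.15) with scipy (1.17.1), pandas (2.3.3) and numpy (2.4.6).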

Additional observations from a re-analysis of the deposited data

Results flagged for a closer look

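Of 50 groups of 4 values that were checked, 3 held a library far from the others, and chance flags about 1 in 20. Among the SB/SB pools of the polygyne colonies, XLOC genes took 44.3% of counts in Rui9 and 33.3% to 35.2% in the other 3. SINVm1_gene_06039, higher in Gui3 among the polygyne colonies, had 24.6 TPM in Tan1 while the other 3 monogyne libraries had 6.52 to 8.37 TPM. SINVm1_gene_00446, an on/off gene, had 711 TPM in Rui7, while the next library had 27.4 TPM and the lowest was listed at 0.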

How the results depend on the processing

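The number of genes past the threshold depended on the settings. No gene named by rank for a colony contrast changed direction in that contrast under an alternative that gave it a value, but many did not pass in every alternative. The 4-colony test gives no direction. With each library left out in turn, the count ranged from 11 to 2697 for the 4-colony test (206 with all libraries), 7 to 2308 for Rui9 (117 higher and 25 lower), 3 to 785 for Gui3 (21), 0 to 2058 for Bang3 (338), 4 to 1085 for Bo5 (9) and 2 to 63 for SB/Sb against SB/SB (24). Without a filter on low counts, which tested 16292 genes, the counts were 1047 for the 4 colonies, 562 for Rui9, 122 for Gui3, 601 for Bang3, 48 for Bo5 and 48 for genotype. With at least 10 counts in every library, which tested 8397 genes, they were 96 for the 4 colonies, 68 for Rui9, 6 for Gui3, 4 for Bo5 and 7 for genotype. DESeq2 gave 640 for the 4 colonies, 334 for Rui9, 70 for Gui3 and 54 for Bo5. With limma on log2(TPM + 1), 4 genes passed for the 4 colonies, 5 for Rui9, 0 for Gui3 (1220 at an unadjusted p under 0.05), 0 for Bang3, 5 for Bo5 and 11 for genotype. That scale moved the median of all genes to -0.200 for Rui9 and 0.172 for Bang3, against 0.0196 and -0.000337 in the edgeR fit. Without the genotype term the counts were 526 for the 4 colonies, 369 for Rui9, 44 for Gui3 and 553 for Bang3. At an adjusted p under 0.01 they were 24 for the 4 colonies, 13 for Rui9, 9 for Gui3, 28 for Bang3 and 4 for Bo5. Upper-quartile factors moved the Rui9 count to 78. DESeq2 called 225 higher and 109 lower genes for Rui9, 41 and 29 for Gui3 and 149 and 204 for Bang3. The 4-colony count was 2336 without colony Gui3, 8 without Bang3 and 17 without Bo5, and 1 in the fit of all 12 libraries by bioreplicate. Without colony Bo5, 5 genes passed for Rui9, 2 for Gui3 and 218 for Bang3. The on/off count was 4 with on at 20 counts, 6 with off at 0 counts and 252 on TPM. The exact p of the nestmate distance was 0.0833 for the 1000 most abundant genes and for log2(TPM + 1). The cause of these shifts was not tested.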
